A study of Mus musculus with 4 samples.

Results

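The genes examined here encode the Leydig cell route from cholesterol to testosterone: Star, Cyp11a1, Hsd3b1, Hsd3b6, Cyp17a1, Hsd17b3 and the redox partners Fdx1, Fdxr and Por. They were taken by name, and all 9 were among the 18419 genes of the table. Single cells from the testes of outbred ICR mice had been captured in droplets and sequenced from the 3′ ends of their transcripts, and each transcript was counted once by its molecular barcode (a UMI). Library A0 came from vehicle controls and A10 from mice given 10 mg/kg of alginate oligosaccharides (AOS). B0 came from mice given busulfan alone, an alkylating drug that depletes germ cells, and BA10 from mice given busulfan plus AOS at 10 mg/kg. Treatment began in juvenile males, and the study text gives more than one length for it. Cells of several mice were pooled into 1 library per group, so animals cannot be told apart and no test between groups was possible. Every interval below covers counting error only. The intervals are 95% intervals, except that those of log2 ratios join the 95% bounds of both counts and are wider.

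Leydig cells lie between the seminiferous tubules and make the androgens of the testis under the control of luteinizing hormone. Star moves cholesterol to the inner mitochondrial membrane, where Cyp11a1 cuts the side chain to give pregnenolone with electrons passed from NADPH through ferredoxin reductase (Fdxr) and ferredoxin (Fdx1). The 3β-hydroxysteroid dehydrogenases Hsd3b1 and Hsd3b6, Cyp17a1 with its electron donor Por, and Hsd17b3 then carry the steroid on to testosterone.

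On GRCm38 (GENCODE M21) Star lies at chr8:25806555-25815982 (plus strand), Cyp11a1 at chr9:58006411-58027023 (plus), Cyp17a1 at chr19:46667165-46673172 (minus), Hsd17b3 at chr13:64058266-64089230 (minus), Fdx1 at chr9:51943306-51963556 (minus), Fdxr at chr11:115268024-115277050 (minus) and Por at chr5:135670033-135735326 (plus).

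The libraries held 8941, 9682, 4659 and 3778 cells and 150812974, 143714595, 25323535 and 91304225 UMIs (A0, A10, B0 and BA10). Each library began at its own lowest UMI count per cell, 7687, 6716, 2985 and 9013, and the median was 12685, 10948, 4214 and 17989 UMIs. Of 26683 distinct barcodes, 374 occurred in more than 1 library. Fewer cells of a type and less RNA per cell cannot be told apart in the sums over a library given next.

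The 6 genes Star, Cyp11a1, Hsd3b1, Hsd3b6, Cyp17a1 and Hsd17b3 were close to absent in the libraries without busulfan and abundant in those given it. According to the paper, cells were taken from the tubules alone, so these levels describe that preparation and not the whole testis. In UMIs per 1000000 UMIs of the library (CPM), Star stood at 0.968 for A0, 1.08 for A10, 743 for B0 and 19.7 for BA10. Cyp11a1 stood at 2.03, 2.26, 1644 and 72.0 CPM in the same order, and Cyp17a1, the member with the most UMIs in B0, at 3.14, 4.06, 3985 and 132.5. Hsd3b1 (0.279, 0.605, 757 and 26.5), Hsd3b6 (0.305, 0.619, 650 and 22.3) and Hsd17b3 (0.517, 0.626, 781 and 26.8) had the same order of libraries, with B0 highest, BA10 next and the intervals of B0 and BA10 far from each other and from those of A0 and A10.

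Of the electron carriers Fdx1 alone had a high level without busulfan. It was at 151 CPM (149 to 153) for A0, 155 for A10, 918 for B0 and 284 for BA10. Fdxr was at 4.52, 5.67, 250 and 13.9 CPM and Por, which serves all microsomal cytochromes P450, at 4.32, 3.42, 88.1 and 7.41. Fdx1 was seen in 73.8% of A0 cells, whereas Hsd3b1 was seen in 0.291% (0.190 to 0.426) and Hsd3b6 in 0.280% of them.

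**Figure D1:**
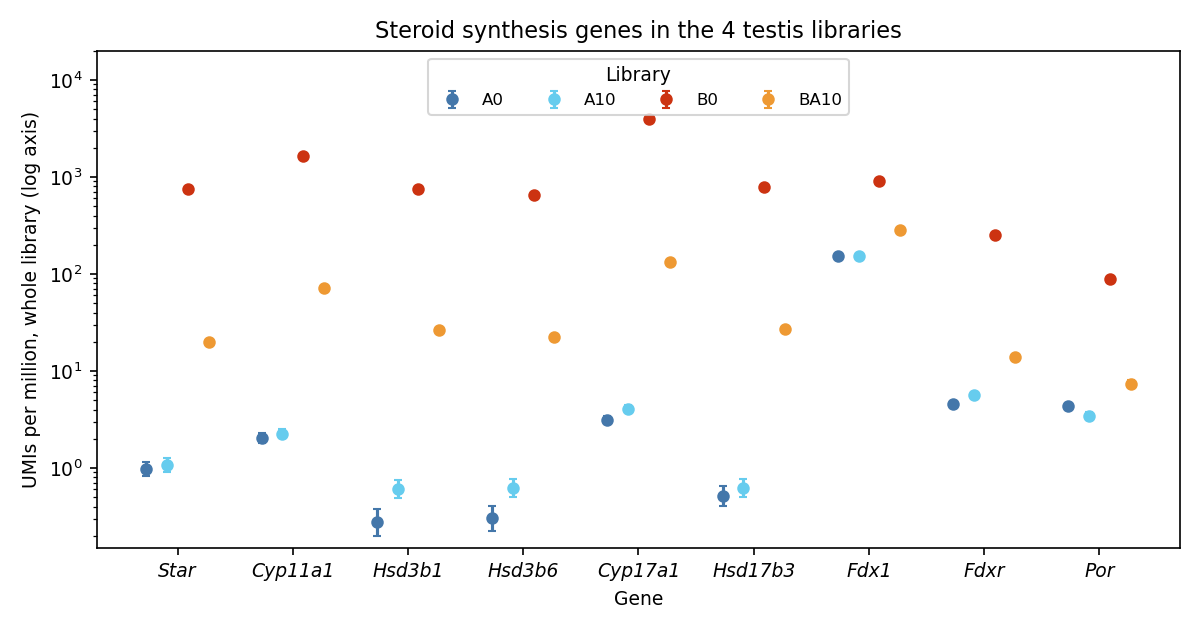
CPM (log axis) of the 9 genes, summed over all cells of each library; bars are exact 95% Poisson intervals and are often smaller than the points. B0 is highest and BA10 next for every gene, and Fdx1 alone is above 100 CPM in A0 and A10.

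As log2 ratios with 1 CPM added, the members were 2.59 (Fdx1) to 9.91 (Cyp17a1) higher in B0 than in A0, with a median of 8.96 against 0.23 over the 9967 genes with a mean of at least 5 CPM. All 9 were at least 2-fold higher, where 36.9% of those genes were, and 23.6% were at least 2-fold lower. All 9 passed the filter on low values, but 7 of them, all but Fdx1 and Fdxr, did so only through the libraries given busulfan, so the count describes and does not test. With median-ratio size factors the split over all genes turned to 23.5% higher and 42.6% lower and their median to -0.65, while the members' median was 8.35. Among cells with at least 9013 UMIs, the lowest count in BA10, the members' median was 5.09. All but Fdx1, 8 of 9, were at least 2-fold higher there, as were 14.4% of 8708 genes, and 10.9% were lower. Without the Leydig-like cells described further on, the members' median was 6.93. The B0 cells left then still held Insl3 at 1448 CPM, and 9123 of their 10719 Cyp17a1 UMIs lay in a macrophage-like class.

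Between BA10 and B0, the comparison of AOS after busulfan, the members had a median log2 ratio of -4.79, from -5.17 (Star) to -1.69 (Fdx1), against -0.13 over all genes that passed the filter. All 9 were at least 2-fold lower, as were 32.5% of genes, and 19.3% were at least 2-fold higher (23.2% and 33.7% with size factors). This difference moved with the UMI limits of the libraries: no BA10 cell had under 9013 UMIs, and 448 of the 4659 B0 cells reached that count. Among those B0 cells Star was at 51.2 and Cyp17a1 at 242 CPM, the median log2 ratio of BA10 over B0 became -0.95, 3 members (Star, Cyp11a1 and Fdxr) were still at least 2-fold lower, as were 12.6% of 8708 genes (1.32% were higher), and Fdx1 turned to 0.11.

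Between BA10 and A0 the members were higher by a median log2 of 4.16 (0.66 for Por to 5.01 for Cyp17a1), and 7 of 9 were at least 2-fold higher, as were 18.3% of genes, while 16.4% were 2-fold lower (9.29% and 20.5% with size factors). Fdx1 at 0.91 and Por at 0.66 were the ones under 2-fold. With 10 CPM added Fdxr was also under 2-fold, where 4.41% of genes were higher and 11.9% lower. As a mean over cells only Por was, where 22.8% were higher and 14.3% lower. At the common limit of 9013 UMIs the members' median was again 4.16.

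Between A10 and A0, AOS without busulfan, 0 of 9 members were 2-fold apart, as were 0.0401% (higher) and 0.0702% (lower) of genes. Adding 1 CPM shrinks the ratios of genes under 1 CPM, such as Hsd3b1 (0.279 and 0.605 in A0 and A10) and Hsd3b6 (0.305 and 0.619). The count therefore says little about them. With 0.1 CPM added all 9 also stayed under 2-fold, where 0.0502% of genes were higher and 0.14% lower. The median log2 ratio was 0.11 and the values ran from -0.27 (Por) to 0.33 (Hsd3b1). The counting interval lay above 0 for Hsd3b1, Hsd3b6, Cyp17a1 and Fdxr, below 0 for Por, and across 0 for Star, Cyp11a1, Hsd17b3 and Fdx1.

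Promoters of the steroid enzymes can be set beside those of the electron carriers. RefSeq windows (GRCm38.p6, 250 bases before to 50 after the start) were at hand for 7 of the 9 genes, and Star and Cyp17a1 had none. They are shown because they differ in CG pairs and GC boxes: capitals mark a GC box (GGGCGG, either strand) or a GATA site (AGATAA, either strand). The windows are Hsd3b1 at chr3:98859745-98860044 (minus strand), Hsd3b6 at chr3:98814394-98814693 (minus), Hsd17b3 at chr13:64089152-64089451 (minus), Cyp11a1 at chr9:58014702-58015001 (plus), Fdx1 at chr9:51963553-51963852 (minus), Fdxr at chr11:115276920-115277219 (minus) and Por at chr5:135688895-135689194 (plus).
Hsd3b1: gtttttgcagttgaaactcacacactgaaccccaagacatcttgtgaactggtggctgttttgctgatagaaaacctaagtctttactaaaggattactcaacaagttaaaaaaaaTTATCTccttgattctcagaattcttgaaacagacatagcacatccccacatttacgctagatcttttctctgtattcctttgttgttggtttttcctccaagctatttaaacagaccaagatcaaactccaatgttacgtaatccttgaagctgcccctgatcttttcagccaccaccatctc
Hsd3b6: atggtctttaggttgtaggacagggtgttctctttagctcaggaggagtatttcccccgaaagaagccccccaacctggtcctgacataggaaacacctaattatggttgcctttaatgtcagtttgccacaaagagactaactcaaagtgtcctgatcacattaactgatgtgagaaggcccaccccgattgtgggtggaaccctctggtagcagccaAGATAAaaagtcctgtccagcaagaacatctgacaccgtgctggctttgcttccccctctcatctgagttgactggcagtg
Hsd17b3: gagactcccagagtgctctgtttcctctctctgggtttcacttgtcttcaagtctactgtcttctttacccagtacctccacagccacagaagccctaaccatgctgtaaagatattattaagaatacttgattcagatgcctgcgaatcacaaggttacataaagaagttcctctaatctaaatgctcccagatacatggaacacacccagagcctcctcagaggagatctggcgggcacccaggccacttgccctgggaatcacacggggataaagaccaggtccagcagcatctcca
Cyp11a1: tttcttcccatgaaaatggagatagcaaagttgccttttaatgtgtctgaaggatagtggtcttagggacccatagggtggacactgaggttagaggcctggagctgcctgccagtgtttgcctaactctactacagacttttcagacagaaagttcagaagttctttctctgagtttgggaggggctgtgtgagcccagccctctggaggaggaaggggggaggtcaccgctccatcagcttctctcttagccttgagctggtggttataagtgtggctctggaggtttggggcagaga
Fdx1: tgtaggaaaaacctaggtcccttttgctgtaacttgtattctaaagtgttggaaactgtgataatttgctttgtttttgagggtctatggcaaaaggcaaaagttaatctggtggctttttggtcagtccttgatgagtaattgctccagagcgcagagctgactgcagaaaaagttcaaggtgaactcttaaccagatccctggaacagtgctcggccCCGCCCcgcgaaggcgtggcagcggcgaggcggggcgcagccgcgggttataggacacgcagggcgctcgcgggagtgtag
Fdxr: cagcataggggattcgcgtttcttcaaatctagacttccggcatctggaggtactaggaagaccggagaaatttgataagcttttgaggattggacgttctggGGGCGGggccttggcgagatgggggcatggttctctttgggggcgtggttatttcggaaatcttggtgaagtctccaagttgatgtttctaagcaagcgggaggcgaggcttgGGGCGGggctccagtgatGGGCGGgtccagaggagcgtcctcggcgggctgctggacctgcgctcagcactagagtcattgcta
Por: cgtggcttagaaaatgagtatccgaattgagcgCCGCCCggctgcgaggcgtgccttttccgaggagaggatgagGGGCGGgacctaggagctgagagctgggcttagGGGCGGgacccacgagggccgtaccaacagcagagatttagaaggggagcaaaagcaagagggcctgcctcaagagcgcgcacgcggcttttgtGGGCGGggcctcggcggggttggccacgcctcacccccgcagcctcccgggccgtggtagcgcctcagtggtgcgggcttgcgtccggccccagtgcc

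The windows of Hsd3b1, Hsd3b6, Hsd17b3 and Cyp11a1 held 2, 3, 3 and 1 CG pairs and no GC box, while those of Fdx1, Fdxr and Por held 16, 17 and 27 CG pairs and 1, 3 and 4 GC boxes. A further Cyp11a1 window that RefSeq lists upstream (chr9:57997774-57998073) held 7 CG pairs and 1 GC box. A GC box was in 35.9% of the 27025 windows of all genes and a GATA site, found in the Hsd3b1 and Hsd3b6 windows, in 11.4%. The letters AAGGTCA (the core bound by Nr5a1, in 4.66% of all windows), TATAAA (14.2%) and TGACGTCA (the cyclic AMP response element, 1.88%) were in none of these windows on either strand. Only exact matches were counted, so variant forms of these sites may be present and were not searched.

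Cells were grouped into 27 clusters without using the 9 genes, and classes are written as X-like because they were named from marker genes. Leydig-like cells formed a large cluster led by Insl3, the peptide hormone of Leydig cells, and a small one. Together they were 5 cells in A0 (0.0559%, 0.0182 to 0.131), 8 in A10 (0.0826%, 0.0357 to 0.163), 2927 in B0 (62.8%, 61.4 to 64.2) and 127 in BA10 (3.36%, 2.81 to 3.99). Among B0 cells with at least 9013 UMIs the share was 20 of 448 cells, or 4.46% (2.75 to 6.81). In the Insl3-led B0 cells 9 of the 10 Leydig markers had 191.5 to 12018 CPM, with Fabp3 at 10600, Prlr at 1355 and the luteinizing hormone receptor Lhcgr at 202. The remaining marker, Hsd11b1, had 11 UMIs in 2902 cells.

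In these 2902 B0 cells, whose median was 4045 UMIs, all 9 members were seen. Cyp17a1 was at 7249 CPM and was seen in 99.7% of cells, and Cyp11a1 at 2951 was seen in 98.5%. Fdx1 (1510 CPM, 98.6% of cells), Hsd17b3 (1424, 95.4%) and Star (1326, 94.0%) were likewise nearly general. Fdxr at 429 CPM was seen in 79.6% and Por at 143 in 44.0% of cells. A cell showed a median of 8 of the 9 members, and 462 cells (15.9%) showed all 9.

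Levels moved with the depth of these cells. Between the 726 shallowest (2985 to 3497 UMIs) and the 724 deepest cells (4788 to 16513 UMIs), Star went from 1446 to 1237 CPM, Cyp11a1 from 2529 to 3144 and Cyp17a1 from 6219 to 7624, while Fdx1 stood at 1501 and 1458.

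All other B0 classes had lower levels than the Leydig-like class for each member, and the median log2 ratio of Leydig-like cells over all other B0 cells was 2.90 (1.98 to 3.11 over the members). The macrophage-like class, 461 cells led by Lyz2, Cd74 and C1qa, came nearest. It held Star at 850, Cyp11a1 at 1805, Cyp17a1 at 4419 and Insl3 at 7943 CPM, against 1307, 2912, 7148 and 11862 in the Leydig-like class. Per Insl3 UMI its members were near the Insl3-led cells, with 0.107 against 0.110 for Star, 0.556 against 0.603 for Cyp17a1 and, farthest off, 0.0145 against 0.0119 for Por. Insl3 was seen in 92.2% of the macrophage-like cells, and whether Leydig cells or mixed droplets were among them was not tested.

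**Figure D2:**
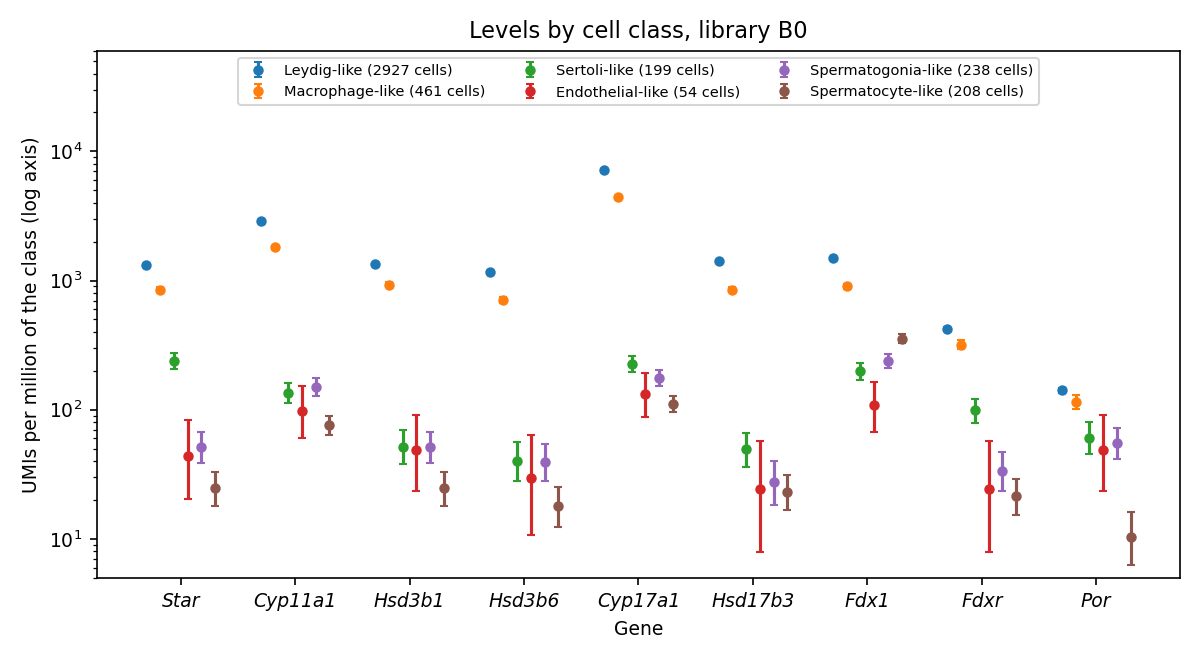
CPM of each cell class (log axis) in the B0 library; bars are exact 95% Poisson intervals. Leydig-like cells are highest for all 9 genes and macrophage-like cells next, and the spread between classes is smallest for Fdx1 and Por.

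The members were set against Insl3, which only Leydig cells should make, as UMIs per Insl3 UMI in each class. The reference was the Insl3-led cells, and the ratio in free RNA itself was not measured. In the B0 Insl3-led cells Star was at 0.110 UMIs per Insl3 UMI (0.108 to 0.112). In Sertoli-like cells, 199 cells led by Cldn11 and Sox9, it was at 0.729 (0.606 to 0.875), with Star seen in 57.8% and Insl3 in 56.3% of cells. It also lay above the Insl3-led cells in spermatogonia-like cells, at 0.225 (0.163 to 0.305), and in unnamed cells, at 0.222 (0.193 to 0.255). As a level, Star in Sertoli-like cells was at 238 CPM (207 to 273), under the 850 of macrophage-like cells and above the 51.5 of spermatogonia-like, 44.2 of endothelial-like, 37.8 of unnamed and 24.7 of spermatocyte-like cells.

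Cyp11a1 at 0.416 (0.332 to 0.517), Fdx1 at 0.606 (0.498 to 0.734), Fdxr at 0.303 (0.235 to 0.387) and Por at 0.187 (0.137 to 0.251) UMIs per Insl3 UMI also stood above the Insl3-led cells, where they were at 0.246, 0.126, 0.0357 and 0.0119. This was not particular to Sertoli-like cells, as Cyp11a1 was at 0.658 in spermatogonia-like, 0.639 in unnamed, 0.471 in spermatocyte-like and 0.444 in endothelial-like cells. Cyp17a1 at 0.690 (0.572 to 0.831), Hsd3b1 at 0.158 (0.113 to 0.218), Hsd3b6 at 0.123 (0.0842 to 0.175) and Hsd17b3 at 0.151 (0.107 to 0.209) had intervals that overlapped those around the Leydig values of 0.603, 0.113, 0.0982 and 0.119. In spermatogonia-like cells Cyp17a1 at 0.771 (0.630 to 0.941), Hsd3b1 at 0.225 (0.163 to 0.305) and Hsd3b6 at 0.173 (0.121 to 0.243) lay above those values. So did Cyp17a1 at 0.866 (0.795 to 0.944), Hsd3b1 at 0.185, Hsd3b6 at 0.173 and Hsd17b3 at 0.161 (0.137 to 0.188) in unnamed cells. The part of free RNA in these levels was not tested. Fdx1 was at 2.19 UMIs per Insl3 UMI in spermatocyte-like and 1.04 in spermatogonia-like cells against 0.126 in the Insl3-led cells, and Por was at 0.242 in spermatogonia-like cells. In BA10 Cyp11a1 was at 0.574 in spermatocyte-like, 0.599 in spermatid-like and 0.605 in unnamed cells, under the 0.717 of the Insl3-led cells. In BA10 spermatocyte-like cells Cyp17a1 (0.8535 against 1.387) was also lower, and the intervals of Star (0.167 against 0.182) overlapped. Fdx1 (6.85 against 0.250), Fdxr (0.2465 against 0.0518) and Por (0.114 against 0.0185) were higher there.

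**Figure D3:**
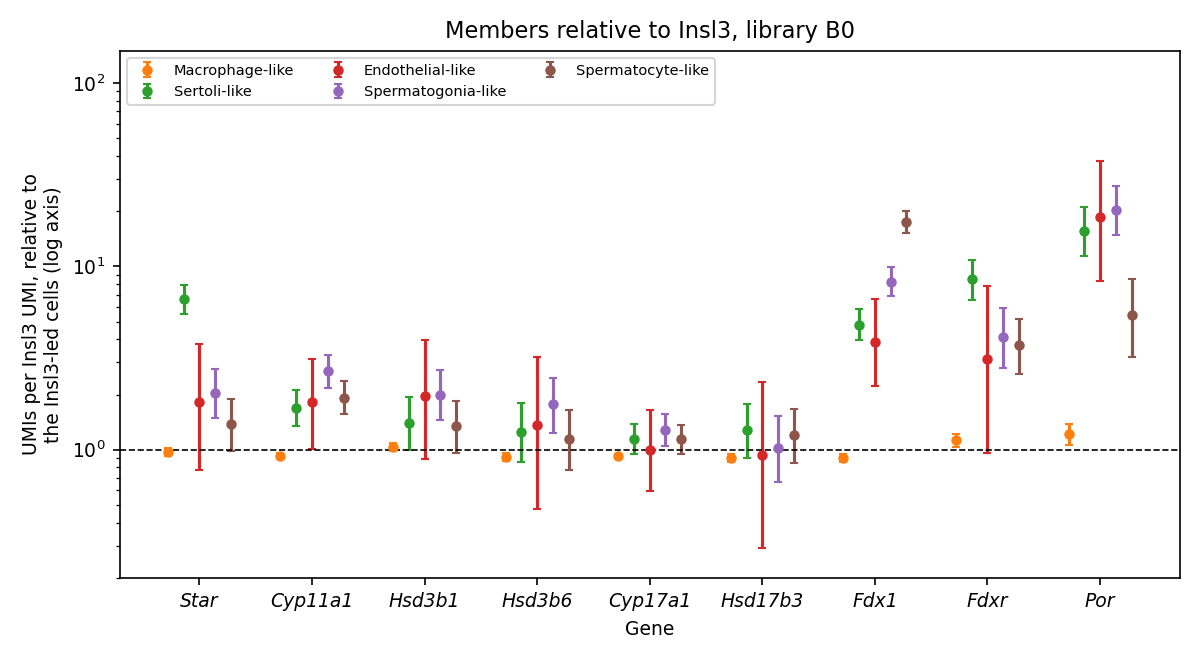
UMIs of each gene per Insl3 UMI in 5 B0 classes, divided by the same ratio in the Insl3-led Leydig-like cells. The axis is log, with a dashed line at 1. Bars come from the Clopper-Pearson interval of the gene's share in both counts. Macrophage-like cells lie near the line throughout, the points of Cyp11a1, Fdx1, Fdxr and Por in the other classes lie above it, and Star is farthest above it in Sertoli-like cells.

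In BA10 the 50 Insl3-led cells could be set against the 2902 of B0. Cyp11a1 was at 4354 against 2951 CPM (log2 ratio 0.56, 0.49 to 0.63), Hsd3b1 at 1619 against 1357 (0.25), Cyp17a1 at 8424 against 7249 (0.22) and Hsd17b3 at 1636 against 1424 (0.20). Star, at 1108 against 1326 (-0.26, -0.40 to -0.12), and Fdxr, at 315 against 429 (-0.45), were lower, while Hsd3b6, Fdx1 and Por had intervals across 0. Between cells the SD of Star was 834 CPM in BA10 (mean 1122) and 1085 in B0 (mean 1344), which these intervals do not cover. Insl3 itself was at 6074 against 12018 (-0.98). The cells differed in depth, with a median of 9603 UMIs in BA10, and 8 B0 cells of the cluster reached 9013 UMIs. These 8 are under the minimum of 30 cells set for a level, and Star varied among them with an SD of 482 around a mean of 759 CPM, which the counting intervals do not cover. Against them the ratio of Star had the opposite sign (0.63), and that of Insl3 was -0.37 (-0.53 to -0.21). The members ran from -0.25 (Fdxr) to 0.97 (Hsd3b1), and Cyp11a1 (0.94), Cyp17a1 (0.83) and Hsd17b3 (0.83) kept their sign. With 8 cells the order of BA10 and B0 in these cells was not settled at matched depth.

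The small Leydig-like cluster (5, 7, 25 and 77 cells in A0, A10, B0 and BA10) was led by Serpina3a, Aqp2 and Ptgds, with 0 of the Leydig markers among its 10 leading genes, and had lower member levels than the Insl3-led cells. In BA10 it held Star at 284, Cyp11a1 at 1077, Cyp17a1 at 2235 and Hsd17b3 at 492 CPM, with the spermatocyte gene Sycp3 at 181 and the spermatid gene Prm1 at 386 CPM. In A0 the same cluster held Prm1 at 11882 CPM. The part of germ cell RNA in its levels was not tested.

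Hsd3b1 and Hsd3b6 lie side by side on chromosome 3 (chr3:98852194-98859794 and chr3:98805504-98814443, minus strand, GENCODE M21) and were about equally abundant in the Insl3-led B0 cells, with 16786 and 14591 UMIs. They were not equally spread over cells. Hsd3b6 was unseen in 1187 of 2902 cells (40.9%, 39.1 to 42.7), Hsd3b1 in 414 (14.3%, 13.0 to 15.6), and both in 98. Star was seen in 2727 cells and Hsd17b3 in 2767, at similar means of 5.65 and 6.07 UMIs per cell against 5.03 for Hsd3b6 and 5.78 for Hsd3b1. The variance over the mean was 8.10 for Hsd3b6, 5.96 for Hsd3b1, 3.84 for Star and 3.16 for Hsd17b3.

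Both paralogs were seen in 1399 of the 2902 cells (48.2%), the largest group, Hsd3b1 alone in 1089 and Hsd3b6 alone in 316, where the product of the shares with each gene gives 1470 cells with both. In Sertoli-like, endothelial-like and spermatogonia-like B0 cells Hsd3b1 was seen in 12.6%, 18.5% and 18.5% of cells. Hsd3b6 was seen in 11.6%, 11.1% and 15.1% of them. In macrophage-like cells the shares were 70.3% and 50.1%. The part of free RNA in these counts was not tested. The amounts of the paralogs were uneven within the Insl3-led cells. Of 1483 cells with at least 10 UMIs of both genes summed, 429 (28.9%) had at least 90% Hsd3b1 and 327 (22.1%) at least 90% Hsd3b6, so 51.0% stood at one end. For Star and Hsd17b3, taken for their similar means after values were seen, the same count was 10.1% of 1668 cells. For pairs of Hsd3b6 with Star, Hsd17b3 and Fdx1 it was 23.8%, 22.2% and 19.9%. The correlation of the shares of UMIs across cells was -0.33 for Hsd3b1 and Hsd3b6 (-0.31 with each cell thinned to 2900 UMIs), the lowest of the 36 member pairs. The next was Cyp11a1 with Hsd3b6 at -0.18, and the highest was Cyp11a1 with Cyp17a1 at 0.38. These points are cells of 1 library and share its depth and its free RNA.

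**Figure D4:**
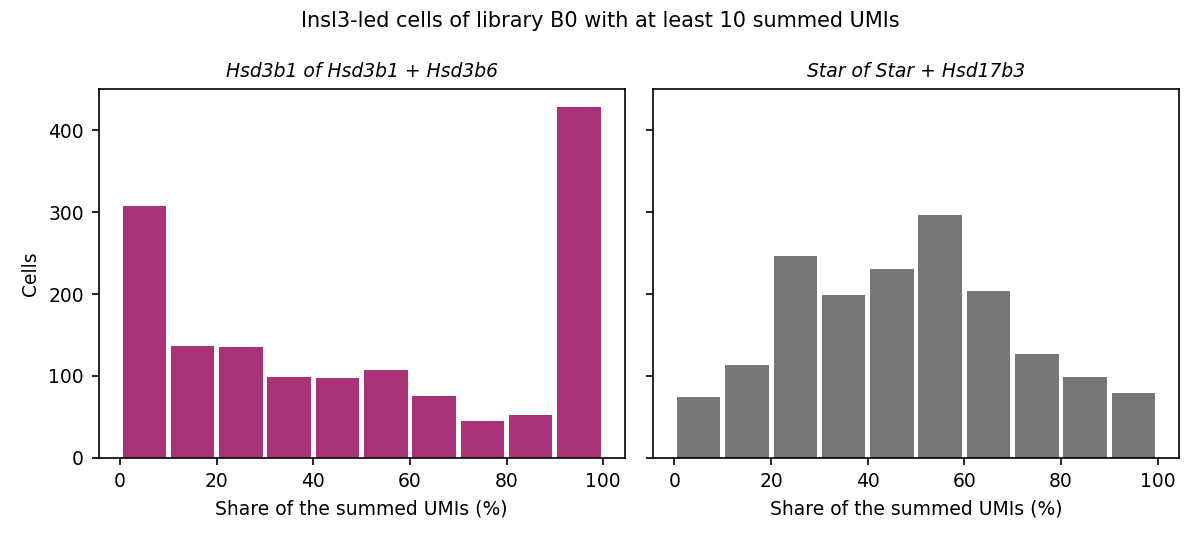
Number of Insl3-led B0 cells by the share of Hsd3b1 in the summed UMIs of Hsd3b1 and Hsd3b6 (left, 1483 cells) and by the share of Star in those of Star and Hsd17b3 (right, 1668 cells), in bins of 10% that hold their lower edge. The left distribution is highest at its ends, with 307 and 429 cells in the outer bins, and the right one near its middle, with 296 cells in its highest bin.

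Cells with and without Hsd3b6 had near equal depth, with medians of 4068 and 4007 UMIs. Those without it held Hsd3b1 at 1776 CPM (1739 to 1813) against 1071 (1047 to 1095), and Cyp11a1 at 3211 (3162 to 3261) against 2774 (2736 to 2812). Fdxr was also higher without it, at 462 (443 to 481) against 407 (392.5 to 422). Star went the other way at 1261 against 1369, and Hsd17b3 at 1334 against 1486, while Cyp17a1 (7184 and 7292), Fdx1 (1500 and 1517) and Insl3 (11976 and 12047) differed by under 2%. Por was at 138 and 147 with overlapping intervals.

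In BA10 Hsd3b6 was unseen in 16 of its 50 Insl3-led cells (32.0%, 19.5 to 46.7) and Hsd3b1 in 4, and the cells without Hsd3b6 held Hsd3b1 at 1985 against 1460 and Cyp11a1 at 4852 against 4138 CPM. The groups were 16 and 34 cells. Their counting intervals overlapped for Star (806 to 1116 and 1067 to 1292), Hsd17b3 (1380 to 1777 and 1535 to 1802), Fdx1 and Por. They also overlapped for Fdxr (191 to 358 and 279 to 401), Cyp17a1 (8428 to 9362 and 7933 to 8524) and Insl3 (5277 to 6022 and 6008 to 6524). The order was opposite to that in B0 for Fdxr (265 without Hsd3b6 against 336 with it), Cyp17a1 and Por. Of 42 BA10 cells with at least 10 summed UMIs, 12 had at least 90% Hsd3b1 and 4 at least 90% Hsd3b6, and the correlation was -0.23. In the small cluster 30 of 77 BA10 cells and 9 of 25 B0 cells lacked Hsd3b6, and 8 and 2 lacked Hsd3b1. With cells thinned to 2900 UMIs, 58.4% and 36.0% lacked Hsd3b6 and 33.8% and 36.0% lacked Hsd3b1, so the paralogs no longer differed in B0 there. The share of Hsd3b1 in the summed UMIs of the paralogs was 53.5% (52.9 to 54.1) in the B0 and 56.4% (53.9 to 59.0) in the BA10 Insl3-led cells.

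The transcripts of the paralogs are alike but not identical. The longest GENCODE M21 coding transcripts were 1855 (Hsd3b1) and 1802 bases (Hsd3b6), with 82.2% identity over aligned bases and 79.1% over the last 500. Of the 401 windows of 100 bases in the last 500 bases of Hsd3b6, where 3′ counting reads fall, 0 occurred in Hsd3b1, 53 in Hsd3b3, a gene not analysed here, and 48 in Hsd3b2, which had 3 UMIs in B0 and 0 in the other libraries. How reads shared by Hsd3b6 and these genes were assigned was not tested, so the Hsd3b6 level is uncertain to that extent.

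Without busulfan the Leydig-like cells were few but held much of the signal. The 5 cells of A0 held 237 of the 474 Cyp17a1 UMIs of the library (95% interval of the share 45.4% to 54.6%), 46 of 78 Hsd17b3 UMIs (59.0%), 19 of 42 Hsd3b1 UMIs and 22 of 46 Hsd3b6 UMIs. The 8 cells of A10 held 77.4% of Cyp17a1 (73.8 to 80.7), 75.9% of Hsd3b1, 74.2% of Hsd3b6 and 76.7% of Hsd17b3 UMIs. For Star the share was 22.6% in A0 and 35.5% in A10, and for Cyp11a1 20.9% and 36.9%. Of Fdx1 the same cells held 0.263% and 0.328%.

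In A0 the 5 cells had 84, 56, 50, 25 and 22 Cyp17a1 UMIs, and outside them no A0 cell had more than 4. Hsd3b1 and Hsd3b6 were at 6 and 0, 0 and 8, 4 and 6, 0 and 1, and 9 and 7 UMIs in those cells, in the same order. In A10, 1 cell of the Insl3-led cluster had 115 Cyp17a1 UMIs. Without the Leydig-like cells Hsd3b1 was at 0.153 CPM in A0 and 0.146 in A10, Hsd3b6 at 0.159 and 0.160, and Cyp17a1 at 1.57 and 0.919, so the A10 over A0 ratios above 0 of these 3 genes rested on these 5 and 8 cells. Fdxr was at 4.48 and 5.56 CPM without them.

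In the other cells of A0 and A10, most of them germ cells, Fdx1 differed more than 10-fold between clusters, with near values in both libraries. Among the 15 clusters with at least 50 cells of each, Fdx1 was highest in cluster 8 (led by Tex101; 307.5 CPM in A0, 311 in A10) and cluster 4 (led by Pou5f2; 305 and 300.4), both spermatocyte-like. It was lowest in cluster 11 (led by Cyp2a12 and Prm2; 19.4 and 18.6) and cluster 9 (18.8 and 22.1), both spermatid-like. Fdxr was at 9.73 and 10.5 CPM in cluster 1 and 9.09 and 10.8 in cluster 4, against 1.41 and 1.20 in cluster 5. Por was highest in cluster 2 (11.4 in A0, 9.40 in A10), whose spermatid and spermatocyte scores were nearly equal (0.202 and 0.200), and lowest in the spermatocyte-like cluster 1 (0.535 and 0.617).

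Cyp11a1 was lowest in the 2 clusters with the most Fdx1. It was at 0.173 and 0.203 CPM in cluster 8, on 1 UMI in each library. It was at 0.117 (0.0141 to 0.421) and 0.158 CPM in cluster 4, on 2 and 3 UMIs, and at 2.63 (1.78 to 3.76) and 2.77 (1.87 to 3.95) in the spermatid-like cluster 5, on 30 UMIs in each library. Insl3 in cluster 5 was at 0.790 and 0.646 CPM and in cluster 4 at 0.291 and 0.473. Star was at most 2.08 CPM in any of them (cluster 8, 12 UMIs in A0).

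**Figure D5:**
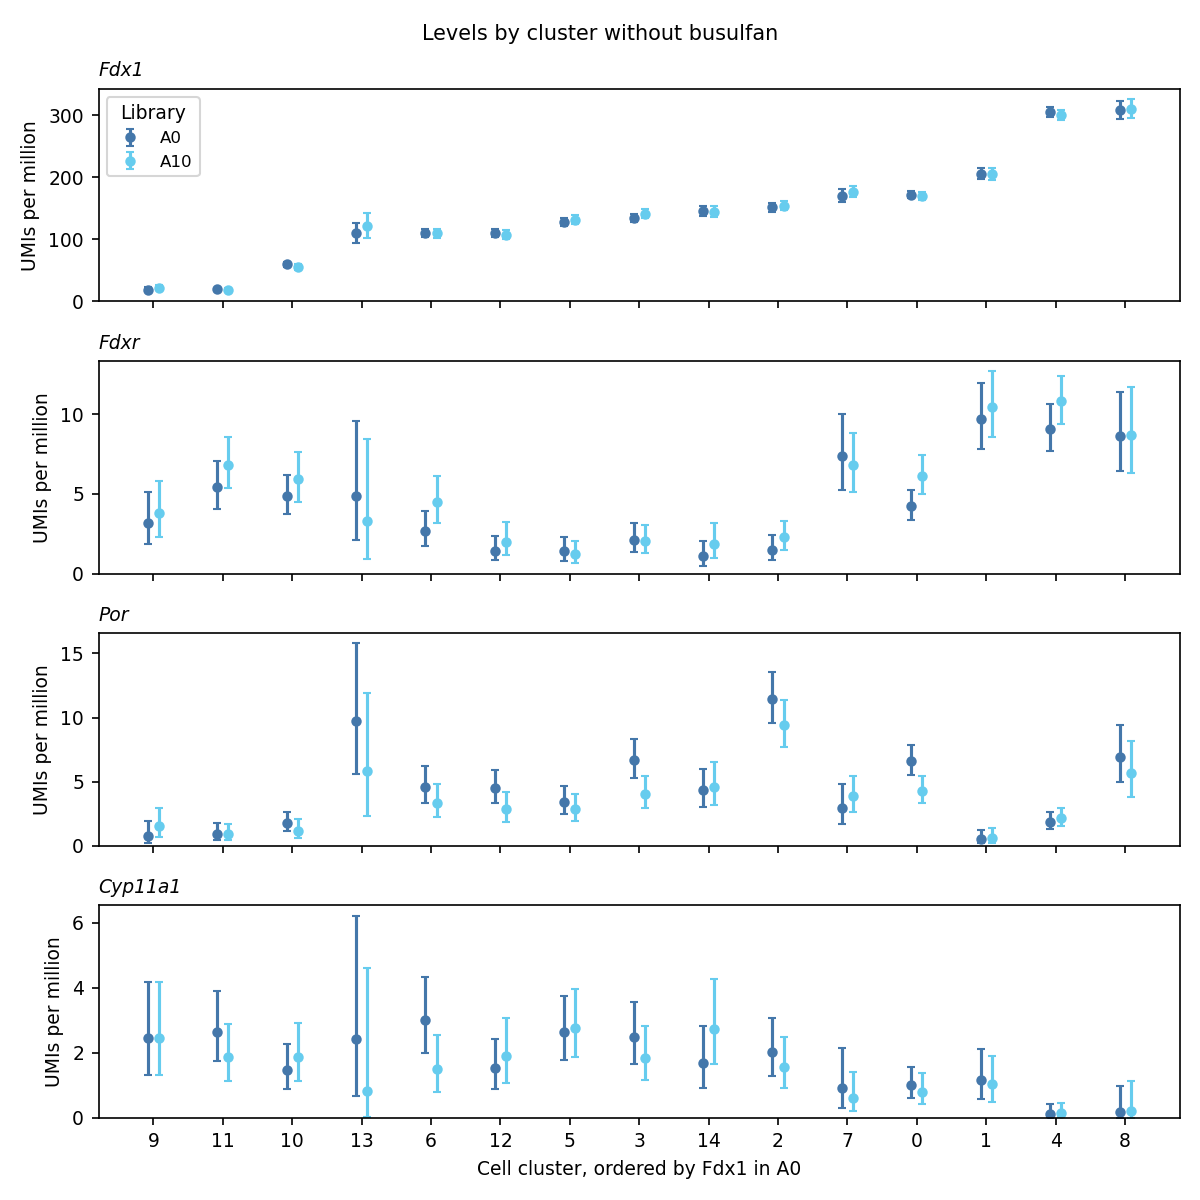
CPM of Fdx1, Fdxr, Por and Cyp11a1 in the 15 clusters with at least 50 cells in both A0 and A10, ordered by Fdx1 in A0; bars are exact 95% Poisson intervals. The order of clusters is alike in the 2 libraries, and Cyp11a1 is lowest where Fdx1 is highest.

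A wider list of 43 genes around the pathway had 38 in the table and 28 with a mean of at least 5 CPM. In B0 over A0, 22 were at least 2-fold higher and 2 lower, with a median log2 of 4.45 (36.9% and 23.6% of all genes; 23.5% and 42.6% with size factors). Of the cholesterol suppliers Tspo (a mitochondrial membrane protein) went from 1.35 to 259.5 CPM, while Lipe, the hormone-sensitive lipase, went from 45.1 to 11.7. Of the regulators Prlr, the prolactin receptor, went from 0.391 to 745, Lhcgr from 0.0862 to 108 and Nr5a1, the nuclear receptor that drives steroidogenic genes, from 0.186 to 116.5. Crem, which germ cells use, was the other lower gene, at 461 and 136. Of the other steroid enzymes 10 passed and were higher in B0, but 9 of them, all but Hsd17b4, were under 5 CPM in both A0 and A10 and passed only through the libraries given busulfan, as did 17 of the 28, so these counts describe and do not test. Among them were Akr1cl at 1.49 and 2857 and the estrogen sulfotransferase Sult1e1 at 0.444 and 1237. Among the 9 enzymes under the filter, named here after their values were seen, Cyp19a1, the aromatase, was at 3.15 in A0 and 0.276 in B0 (log2 ratio -1.70) and Hsd17b2 at 2.57 and 1.07 (-0.79), while Hsd17b1 was at 0.139 and 3.79 (2.07) and Akr1c14 at 0.0531 and 2.29 (1.64). At the common limit of 9013 UMIs 17 of the 28 were higher and 2 lower, with a median of 1.74 (14.4% and 10.9% of genes).

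In BA10 over B0, 23 of the 28 were at least 2-fold lower and 1, Crem, higher, with a median log2 of -3.71 (32.5% and 19.3% of all genes). This moved with the UMI limits as the members did: at 9013 UMIs 13 were lower and 0 higher, with a median of -0.97 (12.6% and 1.32% of genes). In BA10 over A0, 12 were higher and 3 lower (Lipe, Nr4a1 and Gata6), against 18.3% and 16.4% of all genes. In A10 over A0, 0 were 2-fold apart in either direction, with a median of 0.02. Adding 1 CPM shrank the ratios of those under 1 CPM. The list was chosen with earlier results of these data known, and most of its genes are expressed in Leydig cells.

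The genes whose level across the 27 clusters was most like the mean of the members were Sult1e1 (Pearson r = 0.996 of log2 levels), Lrg1 (0.994), Gpt2 (0.994), Tmem176a (0.992), Klk1b24 and Klk1b21 (0.991 each), Slc7a8, Gsta3, Rarres1 and Aldh1a1 (0.991 each). Of the members themselves, Hsd3b1 (0.997) and Hsd3b6 (0.997) were nearest to their own mean, and Fdx1 (0.705), Por (0.906) and Fdxr (0.935) farthest. The points are clusters that share libraries and free RNA, so r is a description.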

How the data were processed

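The deposited table holds natural log values. The authors counted UMIs with Cell Ranger 2.2.0 on mm10 (submitters' processing notes), scaled each cell to 10000, added 1 and took the log. After dividing the exponential minus 1 by the value of 1 UMI, 100% of values were whole within 0.001, so UMIs were recovered. For a level in CPM, UMIs of a library or class were added up and scaled to 1000000. Ratios are log2 with 1 CPM added. No test was run, as every group is 1 library. Intervals are exact Poisson or Clopper-Pearson (95%). Those of log2 ratios set the lower bound of 1 count against the upper bound of the other, so they are wider than 95%. Those of UMIs per Insl3 UMI come from the Clopper-Pearson interval of the gene's share in both counts.

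Clusters (scanpy 1.11.5) used 2000 variable genes without the members, 30 components, 15 neighbours and Leiden resolution 1, with libraries merged without alignment. A cluster took the class whose markers scored highest. It stayed unnamed where markers of another class led, where under 3 markers were seen in 10% of cells, or where at least 3 genes of stroma or endothelium led. The last rule and the scoring were set after values were seen. Doublets were kept (Scrublet called 721, 838, 4 and 48 cells in A0, A10, B0 and BA10), and 0 mitochondrial genes are listed. The members and gene lists were chosen with earlier results of these data known. Genes named are the members, the pathway list above 5 CPM on average, the 10 genes nearest to the members over clusters and Insl3. Enzymes under 5 CPM on average (Cyp19a1, Hsd17b1, Hsd17b2, Akr1c14, Hsd3b2), cluster-leading genes, the comparison of Hsd3b1 with Hsd3b6 by cell and the ratios to Insl3 by class were chosen after values were seen. Hsd11b1, Fabp3, Sycp3 and Prm1 are named as cell type markers and Hsd3b3 as a paralog. The script for log2 ratios between libraries was checked on simulated counts with known changes. Alternatives were other scalings, pseudocounts (10 and 0.1), cell sets and clusterings.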

Additional observations from a re-analysis of the deposited data

Results flagged for a closer look

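For 4 genes AOS went with opposite directions without and after busulfan, with counting intervals that left out 0 on both sides; the difference between the directions was not tested, as each group was 1 library. Hsd3b1 had a log2 ratio of 0.33 for A10 over A0 and -4.79 for BA10 over B0. Hsd3b6 had 0.31 and -4.81, and Cyp17a1 had 0.29 and -4.90. Fdxr had 0.27 and -4.08. At the common limit of 9013 UMIs the BA10 over B0 values were -0.97, -0.95, -0.86 and -1.05 for Hsd3b1, Hsd3b6, Cyp17a1 and Fdxr. The A10 over A0 values at that limit were 0.32 (0.096 to 0.54), 0.16 (-0.066 to 0.39), 0.20 (-0.019 to 0.42) and 0.29 (0.10 to 0.47) in the same order, so the intervals of Hsd3b6 and Cyp17a1 crossed 0 there. Without the Leydig-like cells Hsd3b1, Hsd3b6 and Cyp17a1 were at 0.153, 0.159 and 1.57 CPM in A0 and 0.146, 0.160 and 0.919 in A10. All these ratios are of library sums, and Leydig-like cells were 62.8% of B0 and 3.36% of BA10. Within the Insl3-led cells BA10 over B0 was 0.25 (0.13 to 0.37) for Hsd3b1 and 0.22 (0.16 to 0.27) for Cyp17a1. It was 0.08 (-0.05 to 0.22) for Hsd3b6 and -0.45 (-0.71 to -0.19) for Fdxr, and the order was not settled at matched depth.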

How the results depend on the processing

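The B0 over A0 median of the members stayed above 0 throughout: 9.09 as a mean over cells, 6.10 and 9.59 with 10 and 0.1 CPM added, 8.35 with size factors, 5.09 at the common limit of 9013 UMIs and 6.93 without Leydig-like cells. BA10 over B0 was -4.41 (mean over cells), -4.35 (10 added), -4.27 (size factors), -0.95 (common limit) and -4.05 (without Leydig-like cells). At the common limit 3 members, not 9, were 2-fold lower (12.6% of genes) and Fdx1 turned to 0.11. Without Leydig-like cells all members but Fdx1 were 2-fold lower, as were 28.8% of genes, and 5.12% were higher. The B0 cells left still held Insl3 at 1448 and Cyp17a1 at 844 CPM, so values without Leydig-like cells are not free of Leydig transcripts. BA10 over A0 was 4.66 (mean over cells), 1.65 and 5.08 (10 and 0.1 added) and 2.88 (without Leydig-like cells). A10 over A0 moved from 0.11 to -0.045 without Leydig-like cells. The alternatives without Leydig-like cells, with the Insl3-led cluster alone and with the wider list at the common limit were added after values were seen. Leydig-like over other B0 cells gave 2.70 at resolution 2 and 3.93 with classes set per cell; at the common limit 20 cells were too few for a level. The B0 share of Leydig-like cells was 61.0% at resolution 2 and 4.46% at the common limit. Thinned to 2900 UMIs, the median share of cells with a member's UMI was 0.604%, 0.444%, 67.5% and 4.92% (A0, A10, B0 and BA10) against 2.57%, 1.41%, 72.8% and 19.3%. Of the alternative values of these summary results, 99 stayed within their counting interval or count range and 25 moved; of those of single genes 155 stayed, 150 moved and 1, Fdx1, was reversed (sign changes were counted for ratios of at least 2-fold). The cause of the moves was not tested. No paired analysis was possible because each group is 1 library. The deposited cells of each library start at a different UMI count, which limits comparison of small cells.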
